A study of Mus musculus with 35 samples.

Results

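The genes described here are 10 interferon-inducible GTPases of the mouse: the guanylate-binding proteins Gbp2, Gbp3, Gbp5, Gbp6 and Gbp7, and the immunity-related GTPases Irgm1, Irgm2, Igtp, Iigp1 and Ifi47. They were chosen by name, as genes that interferon-gamma is known to induce, and are 10 of the 21203 genes in the table. Total RNA was sequenced from a block of tissue around the injection site in the left hemisphere of 34 mice, 1 library per mouse. All were C57BL/6NCrl mice, which the methods of the study describe as males of 8 to 9 weeks at the start, and the labels name no engineered allele. Sham mice went through the surgery without the impact and without an injection (n = 5, of which 2 were collected at 1 week and 3 at 3 weeks). The other mice had a closed head injury and, on day 5, an injection into the left hippocampus of phosphate-buffered saline (PBS), of mesenchymal stromal cells of C57BL/6N mice (MSCs), or of the same cells transfected beforehand with synthetic interleukin-4 mRNA (IL-4 MSCs). Tissue was taken 1 week post-injury (wpi), when injected mice were a few days past treatment, or at 3 wpi, with 5 mice in each group except PBS at 3 wpi, which had 4. The MSCs were 1 purchased lot of primary cells, and the transfected mRNA gives IL-4 for a limited time. No group was injured and left without an injection, so injury and injection cannot be told apart in the comparisons with Sham. No sequenced group received cells transfected with another mRNA. Interleukin-4 and the transfection itself therefore cannot be told apart where IL-4 MSCs are compared with MSCs or another group. The number before the dash in the sample titles is shared by all mice of a treated group, so whatever goes with it cannot be told apart from the group either.

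Interferon-gamma, made mainly by natural killer cells and T cells, binds a receptor of the chains Ifngr1 and Ifngr2, to which the kinases Jak1 and Jak2 are bound. The signal induces Irf1 and a set of target genes through GAS and ISRE elements in their promoters. Type I interferons induce many of the same genes through ISRE elements. Guanylate-binding proteins (GBPs) are large GTPases that assemble on the vacuoles of intracellular pathogens and on bacterial surfaces, and take part in inflammasome activation. Among the immunity-related GTPases (IRGs), Irgm1, Irgm2 and Igtp (also called Irgm3) sit on the cell's own membranes and keep the effector IRGs, such as Iigp1 (Irga6) and Ifi47 (Irgd), inactive there, while the effectors load onto the membranes of pathogen vacuoles. In the brain they are best known from infection models, where microglia, astrocytes, endothelium and infiltrating myeloid cells express them.

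Levels are given in CPM, the share of a library's total estimated counts, scaled to a fixed total, and, where genes are compared with each other, in TPM, which is also scaled for transcript length. The libraries held between 29838423 and 41554322 estimated counts, and the members had between 18 (Ifi47) and 1565 (Irgm1) in a library. Differences are log2 fold changes from edgeR's two-sided quasi-likelihood test in 1 fit of all 34 libraries over 17131 genes. Their standard error (SE) is not given by the test and was derived from the log2 fold change and its F statistic. A gene is said to have risen or fallen only when its Benjamini-Hochberg adjusted p over all these genes was under 0.05. Fewer cells of a type and less RNA per cell cannot be told apart in such bulk tissue. The labels call the tissue left cortex. Cortical marker genes were present in every library (summed level of 6 markers 323 to 481 CPM), but so were genes of hippocampus (Prox1, 19.4 to 78.4 CPM) and striatum. The summed level of 13 striatum markers went from 613 CPM in a sham mouse to 4369 CPM in a mouse given IL-4 MSCs at 3 wpi. Among sham mice it was lower in both collected at week 1 (613 and 630.0 CPM) than in the 3 of week 3 (1338 to 1632 CPM). The summed level of the 10 GTPases in sham mice was 40.0 and 40.4 CPM at week 1 and 41.2, 41.3 and 44.6 CPM at week 3. Estimated counts of 7 members (Gbp3, Gbp5, Gbp6, Gbp7, Irgm1, Irgm2 and Igtp) were not whole numbers in all 34 libraries. This happens when an estimator divides a read between transcripts it fits equally well, and values of near-identical family members are uncertain.

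Of the GBP genes 4 lie in 1 cluster on chromosome 3 (Gbp5, Gbp7, Gbp3 and Gbp2, chr3:142493978-142638008 in GRCm38), Gbp6 is on chromosome 5, and Irgm1, Ifi47, Igtp and Irgm2 are on chromosome 11. The gene models of Igtp (chr11:58199556-58207591) and Irgm2 (chr11:58199618-58222782) overlap. RefSeq promoter windows of GRCm38.p6, each 300 bases from 250 before to 50 after a transcript start, were at hand for 8 members (not for Gbp6 and Iigp1). They were searched on both strands for the core of a GAS element (TTCNNNGAA, which is its own reverse complement) and of an ISRE (GAAA, any 2 bases, then GAAA). The ISRE core was in the window of 7 of the 8 members, against 3.44% of all 32851 windows, and the GAS core in 4 of 8, against 8.3%. All 4 members with a GAS core (Gbp5, Gbp7, Igtp and Irgm2) also had the ISRE core, a combination found in 0.454% of all windows. Ifi47 had neither in its window, nor had the other of the 2 Gbp3 windows. The stretches around the ISRE cores are shown because they are the element these members have in common, in gene orientation from 5′ to 3′ with the cores in capitals:
Gbp2 (chr3:142620589-142620628, + strand): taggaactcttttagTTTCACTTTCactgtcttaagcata
Gbp3 (chr3:142559984-142560029, + strand): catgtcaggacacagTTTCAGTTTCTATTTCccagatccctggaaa
Gbp5 (chr3:142496754-142496793, + strand): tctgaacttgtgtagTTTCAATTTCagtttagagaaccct
Gbp7 (chr3:142530215-142530307, + strand): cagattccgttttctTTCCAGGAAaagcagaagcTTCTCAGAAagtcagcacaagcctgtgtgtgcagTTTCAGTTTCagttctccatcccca
Irgm1 (chr11:48871421-48871465, - strand): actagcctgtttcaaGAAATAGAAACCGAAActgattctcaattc
Irgm2 (chr11:58214887-58214937, + strand): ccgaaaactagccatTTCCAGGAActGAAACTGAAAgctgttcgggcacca
Igtp (chr11:58199496-58199546, + strand): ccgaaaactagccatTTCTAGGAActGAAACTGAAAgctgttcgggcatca
In Igtp and Irgm2 the GAS core and the ISRE core are separated by the same 2 bases, and the 51-base stretches printed for them are identical at 49 bases. The cores of Gbp3 and of Irgm1 are a run of overlapping ISRE cores. In Gbp2, Gbp3, Gbp5 and Gbp7 the ISRE core lies on the strand opposite to the gene and so reads as a pair of TTTC, and in Irgm1, Irgm2 and Igtp it lies on the strand of the gene. Gbp5 has GAS cores further away, at bases -245 and -52 from the transcript start, and its ISRE core begins at -165, whereas the other ISRE cores all begin between -64 and -24. In the GENCODE vM21 annotation of GRCm38, the stretches of Gbp7 and Igtp lie upstream of the gene. Those of Gbp5 and Irgm2 lie in introns of longer transcripts of their genes. That of Irgm1 lies in the first exon of a longer Irgm1 transcript annotated as non-coding. Of the others, 27 bases of that of Gbp2 and 4 of that of Gbp3 lie in an exon of the gene itself.

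**Figure D1:**
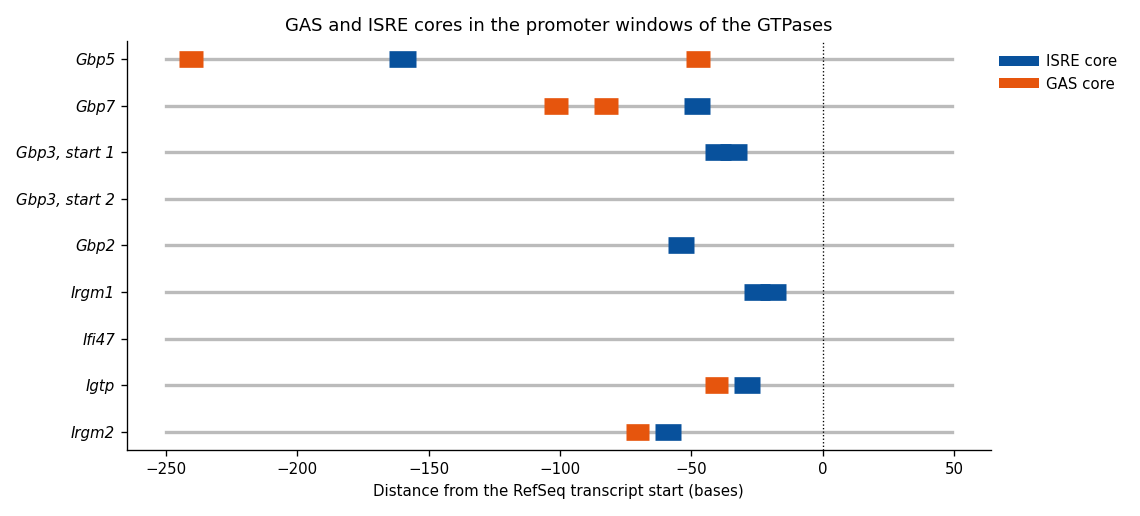
Positions of the GAS core (orange) and ISRE core (blue) in the 9 RefSeq promoter windows of 8 members, with the distance from the transcript start in bases on the x axis and each grey line 1 window. Of the 8 members, 7 have an ISRE core and 4 a GAS core, and no core was found for Ifi47 or at the other start of Gbp3.

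All 10 GTPases were transcribed in uninjured brain at low levels. In sham mice Irgm1 had the highest level per length, 8.33 ± 0.261 TPM (mean ± SD, n = 5), and no sham value of Irgm1 overlapped that of another member. Gbp5 (4.67 ± 0.272 TPM), Gbp3 (4.20 ± 0.635) and Igtp (4.19 ± 0.464) followed, and neighbours among these 3 overlapped. Gbp7 (3.02 ± 0.323 TPM), Gbp2 (2.59 ± 0.667) and Irgm2 (2.51 ± 0.180) came next, and neighbours among them overlapped. Gbp7 and Gbp2, each up to 3.59 TPM, also reached into the range of Gbp3, which went down to 3.47 TPM. Every mouse had less of Gbp6 (1.82 ± 0.222 TPM) than of Irgm2, and again less of Ifi47 (1.21 ± 0.195) and Iigp1 (1.05 ± 0.155). With IL-4 MSCs at 1 wpi the order was different. Irgm1 still led at 37.8 ± 5.30 TPM (n = 5). Gbp3 (25.2 ± 8.08), Igtp (17.4 ± 4.11) and Gbp2 (16.4 ± 6.95) came next. Gbp5 had gone from the second highest level to the eighth at 9.06 ± 0.477 TPM. The ranges of each neighbouring pair in this order overlapped. Within the same mice, however, Irgm1 was above Gbp3, Gbp3 above Igtp, Gbp2 above Gbp6 and Iigp1 above Ifi47 in 5 of 5 mice, while the other neighbours kept their order in 2 to 4 of 5.

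At 1 wpi the mean of 9 of the 10 GTPases was lowest in Sham and went up through PBS and MSCs to IL-4 MSCs. Gbp5 differed only in that PBS and MSCs were level. The rise over Sham was 1.98-fold (Gbp5) to 8.25-fold (Iigp1) with IL-4 MSCs. Their summed level was 40.0 to 44.6 CPM in Sham, 62.4 to 88.0 CPM in PBS, 81.4 to 104 CPM with MSCs and 139 to 228 CPM with IL-4 MSCs. The IL-4 MSC mice stood clear of all others. Against Sham, 8 of 10 members rose in PBS, where 8.7% of all genes tested did. The members had a median log2 fold change of 0.78 against -0.01 over all genes. In MSCs 10 of 10 rose over Sham (background 10.9%, median 1.05 against -0.01). With IL-4 MSCs 10 of 10 rose (background 18.4%, median 2.32 against -0.02). Of the changes over Sham, 3 with PBS, 5 with MSCs and 9 with IL-4 MSCs reached 1 on the log2 scale. The share of all genes reaching this cutoff was not counted in any comparison. Set against PBS, all 10 rose with IL-4 MSCs (background 11.1%, median 1.38 against -0.00419). Set against MSCs all 10 rose too (background 7.65%, median 1.08 against -0.01), 6 of them by at least 1 on the log2 scale. Between MSCs and PBS none of the 10 passed the test (background 0.0992% higher), and 0 were called by DESeq2. Before adjustment 4 of them, and 764 of all 17131 genes in either direction, were under 0.05 in edgeR. All mice of the group lay above all sham mice for 9 members in PBS (8.09% of all genes). The same held for 10 members with MSCs (11.3%) and for 10 with IL-4 MSCs (20.6%). All IL-4 MSC mice lay above all PBS mice for 10 (11.5%) and above all MSC mice for 10 (8.61%). The comparisons with Sham share the same 5 sham mice, and the comparisons with PBS and with MSCs share the mice given IL-4 MSCs.

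**Figure D2:**
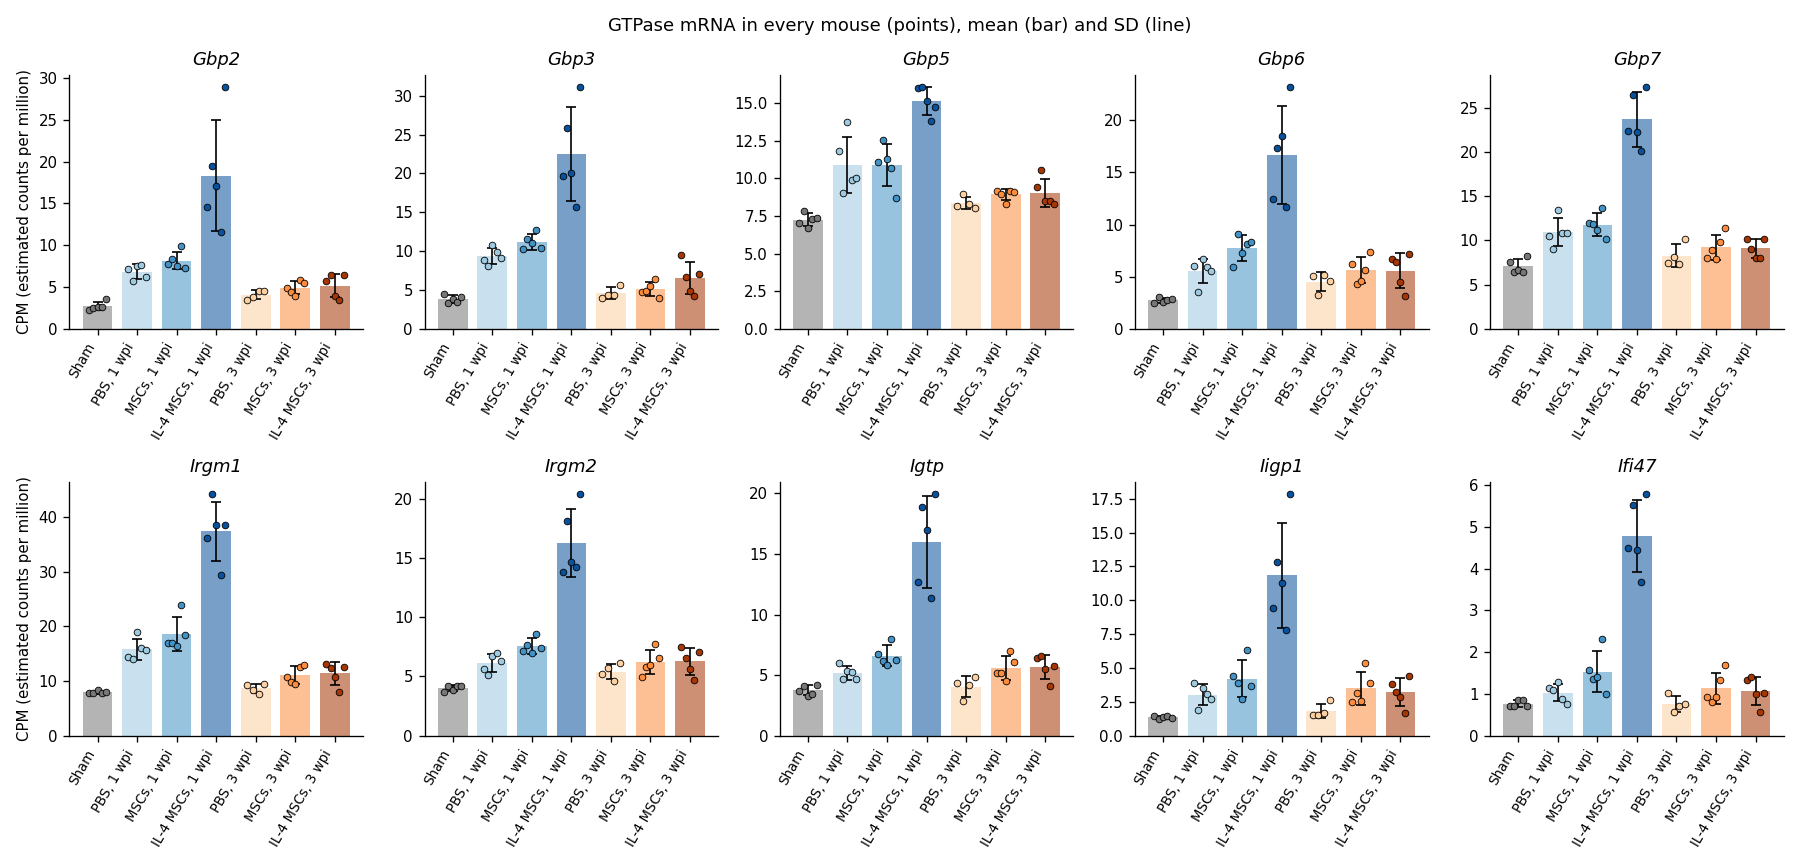
CPM of each member (y axis, linear, from 0) in every mouse of the 7 groups (x axis), with points for mice, bars for group means and lines for the SD (n = 5, PBS at 3 wpi n = 4). The IL-4 MSC mice at 1 wpi lie above all other mice in each panel, as for Gbp2 with 11.6 to 28.9 CPM.

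Among the GBPs, Gbp2, which helps to break open pathogen vacuoles and bacteria, had 2.31, 2.46, 2.59, 2.60 and 3.57 CPM in the 5 sham mice and 5.69, 6.22, 7.16, 7.58 and 7.64 CPM in PBS at 1 wpi. It had 7.26, 7.58, 7.72, 8.35 and 9.89 CPM with MSCs and 11.6, 14.5, 17.1, 19.5 and 28.9 CPM with IL-4 MSCs. Every injured mouse at 1 wpi was above every sham mouse and every IL-4 MSC mouse above all other mice, whereas PBS and MSCs overlapped. Over Sham, the log2 fold change of Gbp2 was 1.30 ± 0.20 (SE) with PBS (edgeR, adjusted p = 1.65e-05). It was 1.54 ± 0.20 (SE) with MSCs (adjusted p = 7.78e-07) and 2.69 ± 0.20 (SE) with IL-4 MSCs (adjusted p = 1.53e-12). IL-4 MSCs exceeded MSCs by 1.15 ± 0.18 (SE) (adjusted p = 2.35e-05). Gbp3 ranged from 3.36 to 4.53 CPM in Sham and 8.13 to 10.8 CPM in PBS. With MSCs it reached 10.3 to 12.7 CPM and with IL-4 MSCs 15.7 to 31.1 CPM. Its log2 fold changes over Sham, 1.24 with PBS, 1.49 with MSCs and 2.47 with IL-4 MSCs, were close to those of Gbp2, and again PBS and MSCs overlapped. Gbp6 ranged from 2.50 to 3.06 CPM in Sham and 3.56 to 6.67 CPM in PBS. With MSCs it reached 5.92 to 9.10 CPM and with IL-4 MSCs 11.7 to 23.2 CPM. Its log2 fold changes over Sham were 0.97, 1.44 and 2.52 in the same order. Gbp7 ranged from 6.46 to 8.27 CPM in Sham and from 9.08 to 13.4 CPM in PBS. With MSCs it reached 10.1 to 13.7 CPM and with IL-4 MSCs 20.1 to 27.4 CPM. Its log2 fold changes were smaller, 0.59, 0.69 and 1.67.

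Gbp5, known for promoting assembly of the NLRP3 inflammasome, had the smallest fold of the 10 members with IL-4 MSCs. It had 6.67, 7.05, 7.33, 7.40 and 7.87 CPM in Sham and, at 1 wpi, 9.06, 9.89, 10.1, 11.8 and 13.7 CPM in PBS. Values were 8.72, 10.7, 11.1, 11.3 and 12.6 CPM with MSCs and 13.8, 14.8, 15.2, 16 and 16 CPM with IL-4 MSCs. The IL-4 MSC mice were still above all others, but the highest PBS mouse was almost level with the lowest of them, and PBS and MSCs overlapped. Over Sham, the log2 fold change of Gbp5 was 0.55 ± 0.09 (SE) with PBS (edgeR, adjusted p = 4.96e-05). It was 0.53 ± 0.09 (SE) with MSCs (adjusted p = 5.43e-05) and 0.99 ± 0.09 (SE) with IL-4 MSCs (adjusted p = 1.14e-10). IL-4 MSCs exceeded PBS by 0.44 ± 0.09 (SE) (adjusted p = 0.000442) and MSCs by 0.46 ± 0.09 (SE) (adjusted p = 0.000406), the smallest such difference among the 10 members. Its window carries both cores, like those of Gbp7, Igtp and Irgm2, with the ISRE core farther from the RefSeq start. A link between the cores and the size of the rise was not tested.

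Of the regulatory IRGs, Irgm1, which protects the cell's own membranes and is needed for resistance to mycobacteria, had 7.80, 7.80, 7.80, 7.93 and 8.31 CPM in Sham and 14.1, 14.4, 15.7, 16.1 and 18.9 CPM in PBS. It had 16.3, 17, 17, 18.3 and 23.9 CPM with MSCs and 29.4, 36.1, 38.5, 38.5 and 44.2 CPM with IL-4 MSCs. No PBS or MSC mouse reached into the range of Sham or of IL-4 MSCs, and PBS and MSCs overlapped each other. Over Sham, the log2 fold change of Irgm1 was 0.96 ± 0.12 (SE) with PBS (edgeR, adjusted p = 1.50e-06). It was 1.17 ± 0.12 (SE) with MSCs (adjusted p = 3.58e-08) and 2.16 ± 0.12 (SE) with IL-4 MSCs (adjusted p = 8.90e-15). Irgm2, which restrains non-canonical inflammasome activity besides its membrane role, ranged from 3.70 to 4.23 CPM in Sham and from 5.14 to 6.96 CPM in PBS. With MSCs it reached 6.98 to 8.62 CPM and with IL-4 MSCs 13.8 to 20.4 CPM. It was the only member in which every MSC mouse was above every PBS mouse at 1 wpi (0.601% of all genes). The log2 difference of 0.28 ± 0.12 (SE) did not pass the test (edgeR, adjusted p = 0.996). Its log2 fold changes over Sham were 0.57 with PBS, 0.86 with MSCs and 1.94 with IL-4 MSCs, which exceeded MSCs by 1.08. Igtp had 3.30, 3.43, 3.71, 4.1 and 4.21 CPM in Sham and 4.65, 4.67, 5.26, 5.31 and 6.03 CPM in PBS. Mice given MSCs had 5.82, 6.18, 6.25, 6.75 and 8.01 CPM and those given IL-4 MSCs 11.4, 12.7, 17, 18.9 and 20.0 CPM. Its PBS mice were all above Sham, but the log2 fold change of 0.43 ± 0.15 (SE) missed the threshold (edgeR, adjusted p = 0.0618). It passed when only those 2 groups were fitted (adjusted p = 0.0190) or in DESeq2 (adjusted p = 0.0478). With MSCs Igtp rose over Sham by 0.77 ± 0.15 (SE) (edgeR, adjusted p = 0.000411). With IL-4 MSCs it rose by 2.03 ± 0.15 (SE) (adjusted p = 1.73e-12), and by 1.60 ± 0.15 (SE) over PBS (adjusted p = 1.08e-09).

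The effector IRGs had the lowest sham levels on the TPM scale and, with IL-4 MSCs, Iigp1 had the highest log2 fold change over Sham of the 10 members. Iigp1, which damages the vacuoles of Toxoplasma and Chlamydia, had 1.22, 1.28, 1.41, 1.43 and 1.44 CPM in Sham and 1.91, 2.67, 3.11, 3.54 and 3.90 CPM in PBS. It had 2.69, 3.67, 3.88, 4.44 and 6.34 CPM with MSCs and 7.78, 9.42, 11.3, 12.8 and 17.9 CPM with IL-4 MSCs. All injured mice at 1 wpi were above all sham mice and all IL-4 MSC mice above all other mice. Iigp1 rose over Sham by 1.11 ± 0.28 (SE) on the log2 scale in PBS (edgeR, adjusted p = 0.00632, and 0.105 against the 2 sham mice of week 1 alone). The rise was 1.57 ± 0.27 (SE) with MSCs (adjusted p = 8.97e-05) and 3.04 ± 0.27 (SE) with IL-4 MSCs (adjusted p = 1.16e-10). Ifi47 had 0.702, 0.706, 0.715, 0.863 and 0.864 CPM in Sham and 0.766, 0.884, 1.10, 1.14 and 1.28 CPM in PBS. Mice given MSCs had 1.00, 1.36, 1.41, 1.58 and 2.32 CPM and those given IL-4 MSCs 3.69, 4.45, 4.49, 5.54 and 5.80 CPM. It was the only member whose PBS mice overlapped Sham at 1 wpi, and its log2 difference of 0.38 ± 0.24 (SE) was not significant (edgeR, adjusted p = 0.337). With MSCs Ifi47 was above Sham by 0.93 ± 0.23 (SE) (adjusted p = 0.00359, and 0.0992 against the sham mice of week 1 alone). With IL-4 MSCs it was above Sham by 2.56 ± 0.22 (SE) (adjusted p = 3.54e-11). Relative to PBS it had the highest fold of the 10 with IL-4 MSCs, 2.18 ± 0.21 (SE) (adjusted p = 3.74e-09), and relative to MSCs 1.62 ± 0.21 (SE) (adjusted p = 7.21e-07). On the TPM scale the IL-4 MSC to Sham ratio of group means was 5.49 for Ifi47, against 6.23 on the CPM scale, and the ratios of the other 9 members differed less between the scales.

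**Figure D3:**
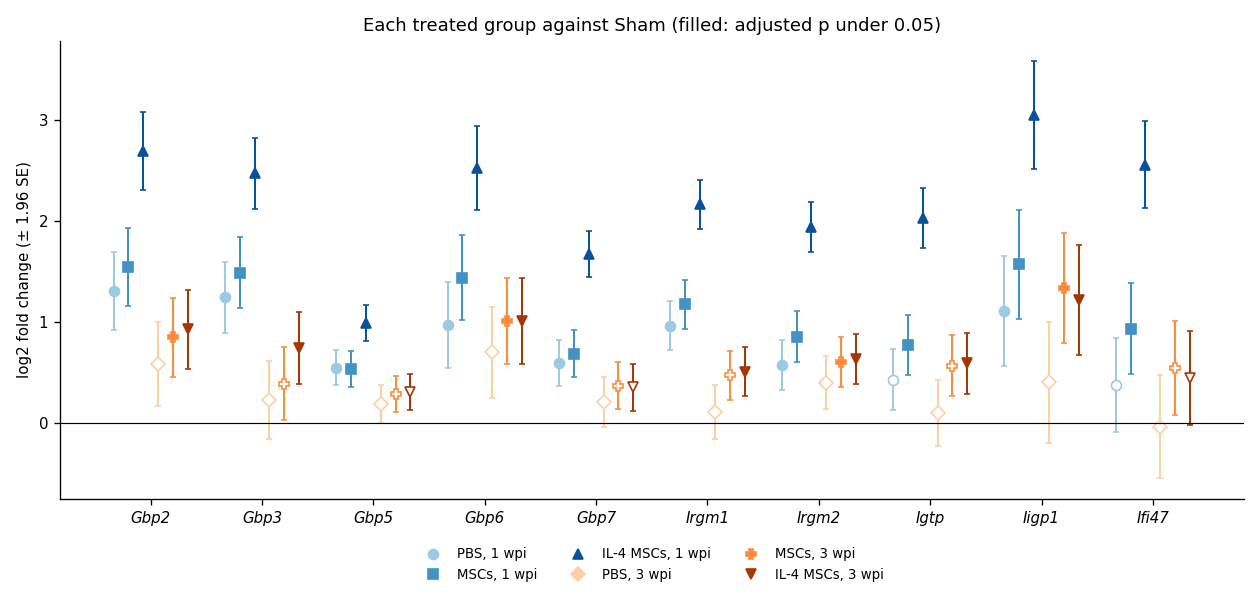
Log2 fold change of each member over Sham (y axis) in the 6 treated groups, with lines for the approximate 95% interval; filled points had an adjusted p under 0.05. IL-4 MSCs at 1 wpi are the highest point for every member, and at 3 wpi filled points are left in MSCs (4 members) and IL-4 MSCs (7 members) and none in PBS.

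In each injured group at 1 wpi 1 mouse was the highest or the lowest for most GTPases. In IL-4 MSCs, mouse 5 was the highest of the 5 for 8 of 10 members, with a summed level of 228 CPM, and mouse 4 the lowest for 9, with 139 CPM. In MSCs mouse 4 was highest for 8 members and in PBS mouse 2 lowest for 9. This was not so in Sham, where no mouse was highest or lowest for more than 3 members. At 3 wpi mouse 4 was highest for 7 members in PBS and for 6 in MSCs. In IL-4 MSCs at 3 wpi mouse 4 was lowest for 9, while the highest values fell to 3 mice, with 3, 4 and 3 members. Leaving out each mouse in turn kept the count of members that rose in each of the 3 comparisons with Sham at 1 wpi at 8, 10 and 10. It stayed the same in both comparisons of IL-4 MSCs with PBS and MSCs at 10. Over all 34 libraries, log2 CPM of members correlated with Pearson's r between 0.85 (Gbp5 and Ifi47) and 0.96 (Gbp3 and Irgm1) in 45 pairs, a value that the differences between groups contribute to. After the group means were subtracted, the median of the 45 pairs was 0.63, and the 9 pairs with Gbp5 were the lowest for each of the other members, with a median of 0.27. The points in these correlations share libraries, depth and, for some family members, reads, and they are given as a description.

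At 3 wpi the median log2 fold change of the members over Sham was 0.22 with PBS, 0.55 with MSCs and 0.61 with IL-4 MSCs, after 0.78, 1.05 and 2.32 at 1 wpi. The summed level of the 10 GTPases was 47.5 to 56.7 CPM in PBS, 53.6 to 71.0 CPM with MSCs and 46.3 to 73.7 CPM with IL-4 MSCs. All mice of the group lay above all sham mice for 4 members in PBS (1.82% of all genes), for 7 with MSCs (1.87%) and for 4 with IL-4 MSCs (2.4%). In PBS none of the 10 differed from Sham (background 0.0117% higher), and 0 were called by DESeq2. Before adjustment 3 of them, and 902 of all 17131 genes in either direction, were under 0.05 in edgeR. The median over all genes was 0.00. In MSCs 4 of 10 were above Sham, Gbp2, Gbp6, Irgm2 and Iigp1 (background 1.13%, median over all genes 0.00). With IL-4 MSCs 7 of 10 were above Sham, all except Gbp5, Gbp7 and Ifi47 (background 2.63%, median over all genes 0.01). In IL-4 MSCs at 3 wpi 4 of the 5 mice had striatum marker sums of 2656 to 4369 CPM, above all mice of the other groups, which reached 1643 CPM at most. The counts of members depended on the tool and on which mice and groups entered the fit, and the share of all genes called also differed between settings. For the fits that leave out a single mouse that share is not given. DESeq2 called 6 members with MSCs, adding Igtp (adjusted p = 0.0249) and Irgm1 (0.0166), and 1.81% of all genes. With IL-4 MSCs it called 8, adding Gbp5 (0.0345), and 3.71% of all genes. Against the 3 sham mice of week 3 alone, 0 members passed with MSCs (edgeR, adjusted p = 0.0794 to 0.187 for the 4) and 1 (Irgm2) with IL-4 MSCs, while the log2 fold change of Iigp1 with MSCs was 1.40 against these and 1.34 against all 5 sham mice. Of all genes 0.298% and 0.414% then rose. With only the 2 groups fitted 2 passed in IL-4 MSCs (0.49% of all genes) and 5 in MSCs, where Irgm1 was added (adjusted p = 0.0481, 0.385% of all genes). With the striatum markers as a covariate 4 passed in IL-4 MSCs (0.485% of all genes), where the median log2 fold change of the members was 0.70. Without sham mouse 4 or without IL-4 MSC mouse 1 the count was also 4, and without IL-4 MSC mouse 5 it was 3. Without MSC mouse 5 there were 2 in MSCs. In MSCs the call of Gbp2 was lost without any of sham mice 1 to 4 (adjusted p = 0.0812 to 0.0918) and without MSC mouse 4 or 5 (0.0690 and 0.108). That of Gbp6 was lost without MSC mouse 5 (0.0821), while Igtp and Irgm1 were called without MSC mouse 3. In IL-4 MSCs, Gbp3, Irgm1 and Igtp were lost without sham mouse 4, IL-4 MSC mouse 1 or IL-4 MSC mouse 5. Igtp was also lost without sham mouse 1 or 3, and Iigp1 without IL-4 MSC mouse 5 (0.0592). The adjusted p was between 0.0523 and 0.0833 in all these cases. Gbp7 was called without sham mouse 5.

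Iigp1 had 1.5, 1.52, 1.70 and 2.62 CPM in PBS at 3 wpi. It had 2.48, 2.55, 3.18, 3.86 and 5.35 CPM with MSCs and 1.65, 2.88, 3.26, 3.78 and 4.43 CPM with IL-4 MSCs. All of these were above the highest sham value of 1.44 CPM, but in PBS the margin was small for 3 of 4 mice and the groups overlapped each other. Its log2 fold change over Sham was 0.40 ± 0.31 (SE) with PBS (edgeR, adjusted p = 0.983). It was 1.34 ± 0.28 (SE) with MSCs (adjusted p = 0.00865) and 1.22 ± 0.28 (SE) with IL-4 MSCs (adjusted p = 0.0109). Irgm2 had 4.65, 5.20, 5.68 and 6.11 CPM in PBS at 3 wpi. It had 4.98, 5.81, 5.97, 6.52 and 7.78 CPM with MSCs and 4.68, 5.61, 6.58, 7.06 and 7.53 CPM with IL-4 MSCs. No Irgm2 value of an injured mouse reached down to Sham, where the highest was 4.23 CPM. IL-4 MSCs exceeded Sham by 0.63 ± 0.13 (SE) (adjusted p = 0.00476, and 0.0465 against the sham mice of week 3 alone). Gbp2 had 3.50, 3.86, 4.51 and 4.56 CPM in PBS at 3 wpi. It had 3.90, 4.43, 4.95, 5.46 and 5.82 CPM with MSCs and 3.43, 3.96, 5.69, 6.42 and 6.44 CPM with IL-4 MSCs. All MSC mice were above Sham for Gbp2, and the lowest IL-4 MSC mouse and the lowest PBS mouse fell under the highest sham mouse. Its log2 fold change was 0.85 ± 0.20 (SE) in MSCs (edgeR, adjusted p = 0.0284) and 0.93 ± 0.20 (SE) in IL-4 MSCs (adjusted p = 0.00735). Gbp6 reached 4.26 to 7.36 CPM in MSCs and 3.12 to 7.16 in IL-4 MSCs, above Sham without overlap in both. The same held in PBS (3.21 to 5.14 CPM), whose log2 fold change of 0.70 ± 0.23 (SE) was not significant (adjusted p = 0.695). Gbp3 (0.74), Irgm1 (0.51) and Igtp (0.59) were the other members called in IL-4 MSCs, with log2 fold changes under 1, and in all 3 the lowest IL-4 MSC mouse overlapped Sham. Ifi47 had 0.579 to 1.01 CPM in PBS, 0.813 to 1.69 CPM with MSCs and 0.563 to 1.41 CPM with IL-4 MSCs. All 3 overlapped Sham, where it had 0.702 to 0.864 CPM. In IL-4 MSCs at 3 wpi, mouse 4 was the lowest for 9 of 10 members, and its summed level of 46.3 CPM was below every PBS mouse. The same mouse had the highest striatum (4369 CPM) and T-cell marker sums (24.5 CPM) of the 34. GTPase and striatum sums in CPM were 73.7 and 2735 in mouse 1 and 69.4 and 809 in mouse 2. They were 55.7 and 2656 in mouse 3 and 70.1 and 3276 in mouse 5. The part of the tissue block in these GTPase levels was not tested.

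Between treatments at 3 wpi none of the 10 members passed the test. For IL-4 MSCs against PBS the log2 differences ran from 0.12 to 0.82, and DESeq2 called 0 (background 2.13% higher). Before adjustment 4 members, and 2876 of all 17131 genes in either direction, were under 0.05 in edgeR. Without IL-4 MSC mouse 4 edgeR called 1, a fit for which the share of all genes is not given. For IL-4 MSCs against MSCs the log2 differences ran from -0.12 to 0.35, and DESeq2 called 0 (background 2.22%). Before adjustment 0 members and 3050 of all genes were under 0.05 in edgeR. For MSCs against PBS the log2 differences ran from 0.10 to 0.93, and DESeq2 called 0 (background 0.0759%). Before adjustment 4 members and 964 of all genes were under 0.05 in edgeR. The approximate 95% interval of Iigp1, the widest of these, was -0.62 to 0.39 for IL-4 MSCs against MSCs, so a difference of the size seen at 1 wpi (1.47) was outside it. For Irgm1 the interval was -0.20 to 0.28, against a difference of 0.99 at 1 wpi.

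**Figure D4:**
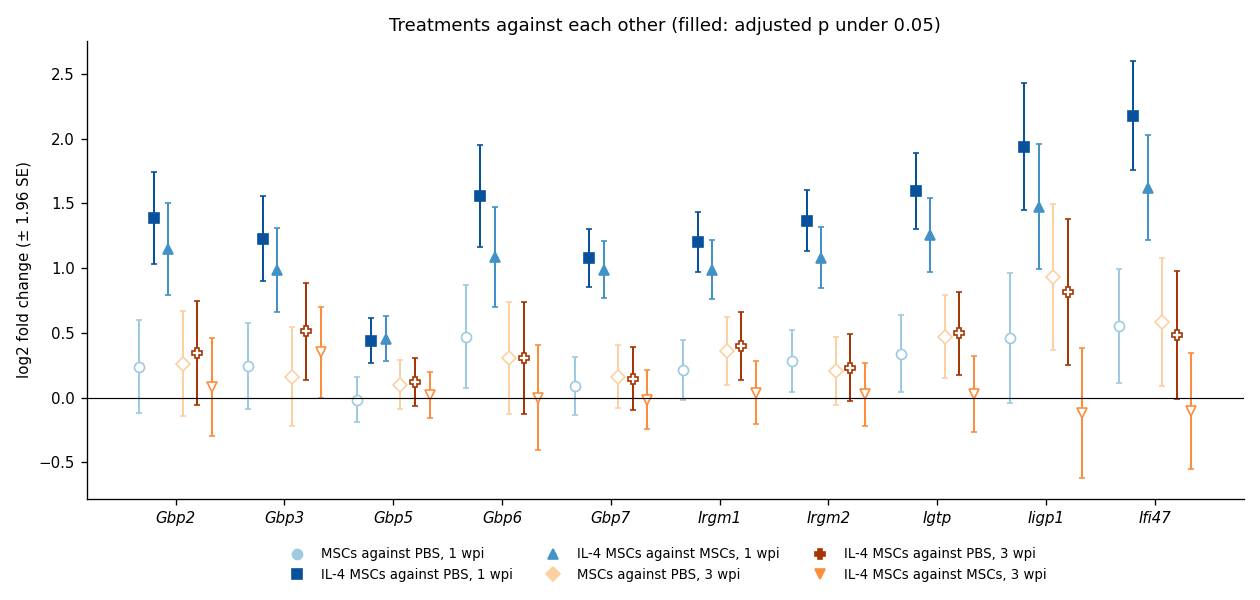
Log2 fold change of each member between treatments (y axis) at 1 wpi (blue) and 3 wpi (orange and brown), with lines for the approximate 95% interval; filled points had an adjusted p under 0.05. IL-4 MSCs against PBS and against MSCs at 1 wpi are filled for all 10 members, and no point is filled for MSCs against PBS or at 3 wpi.

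From 1 to 3 wpi all 10 members fell in IL-4 MSCs (background 16.5% lower, median log2 fold change -1.59 against 0.03 over all genes). The fall was 1.61-fold for Gbp5 to 4.32-fold for Ifi47. For all 10 every mouse at 3 wpi was below every mouse at 1 wpi (18% of all genes). In PBS 4 fell, Gbp2, Gbp3, Gbp5 and Irgm1 (background 4.86%, median -0.40). With MSCs 3 fell, Gbp2, Gbp3 and Irgm1 (background 4.91%, median -0.35). The PBS count was 2 without PBS mouse 3 of 1 wpi or without PBS mouse 1 of 3 wpi, since Gbp2 and Gbp5 then missed the threshold. Gbp2 was also lost without PBS mouse 1 or 4 of 1 wpi or mouse 2 of 3 wpi, and with MSCs without mouse 4 of 1 wpi or mouse 2 or 3 of 3 wpi (edgeR, adjusted p = 0.0510 to 0.121). In PBS Gbp5 was also lost with only the 2 groups fitted (0.137) and Gbp7 was called by DESeq2 (0.0402). With MSCs Gbp5 was called without mouse 5 of 1 wpi (0.0256) and Gbp7 without mouse 5 of 3 wpi (0.0251). On the log2 scale Gbp3 changed by -1.02 with PBS, -1.10 with MSCs and -1.73 with IL-4 MSCs. Iigp1, by contrast, differed by -0.23 ± 0.25 (SE) between the times in MSCs (edgeR, adjusted p = 0.711), with 2.69 to 6.34 CPM at 1 wpi and 2.48 to 5.35 at 3 wpi. Whether the effect of IL-4 MSCs differed between the times was tested as an interaction. Relative to MSCs it was smaller at 3 wpi for 9 of 10 members, all except Gbp3 (background 5.88% lower, median -1.06). Relative to PBS it was smaller for 7, all except Gbp3, Gbp5 and Iigp1 (background 3.89%, median -1.07). The largest of these was Ifi47, with -1.72 ± 0.31 (SE) relative to MSCs (edgeR, adjusted p = 0.000338) and -1.69 ± 0.33 (SE) relative to PBS (adjusted p = 0.00148). The Gbp5 interaction relative to MSCs was lost without MSC mouse 5 of 1 wpi or IL-4 MSC mouse 4 of 3 wpi (adjusted p = 0.0617 and 0.0606), and with the striatum covariate (0.0673). That of Iigp1 relative to PBS was called by DESeq2 (0.0441) and without IL-4 MSC mouse 4 of 1 wpi or mouse 5 of 3 wpi (0.0456 and 0.0479). That of Gbp5 relative to PBS was called without PBS mouse 3 of 1 wpi (0.0181). The Gbp2 interaction relative to PBS was lost without PBS mouse 3 of 3 wpi (0.0538). Gbp3 was called in both without IL-4 MSC mouse 4 of 1 wpi or mouse 1 of 3 wpi. For MSCs against PBS no interaction passed (background 0.0%), with 0 members under 0.05 before adjustment in edgeR and 0 called by DESeq2.

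Other genes of the pathway were counted from lists compiled by hand. Of all genes tested, 8.7% rose over Sham at 1 wpi with PBS, 10.9% with MSCs and 18.4% with IL-4 MSCs. With IL-4 MSCs 11.1% rose over PBS and 7.65% over MSCs. At 3 wpi 1.13% rose over Sham with MSCs and 2.63% with IL-4 MSCs, and 0.0759% and 2.13% over PBS. The ligand itself was not detectable: Ifng had at most 3 estimated counts in each of the 34 libraries, including all IL-4 MSC mice, and was not tested. Of 12 genes of the ligand and receptor list, which also holds cytokines that induce interferon-gamma, such as IL-12 and IL-18, and their receptors, 9 were expressed highly enough to test. With IL-4 MSCs at 1 wpi 4 of these 9 rose over Sham and 1 over PBS, with medians of 0.33 and 0.23. The count over PBS was near the share over all genes (11.1%). Ifngr1, the ligand-binding chain, was the gene that rose over PBS, from 17.5 ± 0.697 to 28.3 ± 1.70 CPM (mean ± SD, n = 5 each), by 0.66 on the log2 scale (edgeR, adjusted p = 2.64e-05). It was 0.38 in PBS over Sham (adjusted p = 0.0169). Ifngr2, the signalling chain, stayed between 32.6 and 51.0 CPM over all libraries, and its difference of 0.05 did not pass (adjusted p = 0.615). Il18rap, a chain of the IL-18 receptor, had the highest log2 fold change of this list over Sham (3.28, adjusted p = 4.17e-06).

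Of the 15 signalling genes, 12 rose and 1 fell over Sham with IL-4 MSCs at 1 wpi (median 1.19), and 8 rose in PBS (median 0.22). Irf1 rose by 1.19 over Sham and 0.62 over MSCs (adjusted p = 1.34e-11 and 1.54e-05), and Irf8, a factor of myeloid cells, by 2.01 and 0.65 (adjusted p = 7.25e-13 and 0.000936). Nlrc5 had the highest log2 fold change of the list over Sham (3.71, adjusted p = 4.04e-13) and Pias1 the lowest (-0.11, adjusted p = 0.00698). Jak2 rose by 0.43 over MSCs (adjusted p = 1.05e-05), while Jak1 differed by 0.01 (adjusted p = 0.928). Nlrc5 and Ciita, the activators of MHC class I and class II genes, exceeded MSCs by 1.48 and 0.67 (adjusted p = 9.12e-06 and 0.0101). Socs1, the feedback inhibitor of the kinases, did not pass in PBS over Sham (-0.12, adjusted p = 0.782). It rose with IL-4 MSCs to 3.31 ± 0.807 CPM from 1.06 ± 0.154 in PBS (log2 fold change 1.61, adjusted p = 2.79e-07). At 3 wpi 3 of the 15 were above Sham with MSCs and 3 with IL-4 MSCs. These were Nlrc5 (1.97 and 1.87), Irf8 (0.80 and 0.66) and Irf1 (0.41 and 0.37).

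Of 25 other interferon-gamma targets, such as chemokines, immunoproteasome subunits and antigen presentation genes, 18 rose over Sham at 1 wpi with PBS, 21 with MSCs and 23 with IL-4 MSCs. Their medians were 0.93, 1.24 and 2.68. The chemokine Cxcl10 rose by 5.63 over Sham and 1.22 over MSCs with IL-4 MSCs (adjusted p = 4.97e-11 and 0.0138). Cxcl9, at 0.913 ± 0.507 CPM, rose by 1.60 over PBS (adjusted p = 0.00996) but not over MSCs (0.72, adjusted p = 0.334). Slfn1, a Schlafen family gene, had the highest fold of the list, from 0.0279 ± 0.0412 CPM in Sham to 2.97 ± 0.263 CPM, and Cxcl11 the lowest (0.04, adjusted p = 0.929). At 3 wpi the number of these targets above Sham was 16 of 25 in MSCs with a median of 0.91, and 16 of 25 in IL-4 MSCs with a median of 0.94. Cxcl9 (2.36 and 1.87) and Cxcl10 (2.64 and 2.89) were among them. Of 27 genes tested that are best known from type I interferon, 23, 25 and 27 rose over Sham at 1 wpi with PBS, with MSCs and with IL-4 MSCs. The medians were 1.04, 1.39 and 2.66, and 26 rose with IL-4 MSCs over MSCs (median 1.26). Zbp1, a sensor of Z-form nucleic acids, had the highest of these over Sham (5.63, adjusted p = 5.20e-13) and Cmpk2, a mitochondrial nucleotide kinase, the lowest (0.24, adjusted p = 0.00193). At 3 wpi 1 of the 27 was above Sham with MSCs and 7 with IL-4 MSCs. Of the other GBPs and IRGs, 17 of 19 listed were tested, of which 4 rose over Sham with PBS, 6 with MSCs and 15 with IL-4 MSCs. Of these 17, 13 rose with IL-4 MSCs over MSCs (median 1.14). Gbp2b, a close relative of Gbp2, had no more than 2.02 estimated counts in a sham mouse and 0.178 to 0.594 CPM in IL-4 MSCs. The partners and downstream genes hold the autophagy conjugation genes that place IRGs on membranes and the inflammasome genes. Of these 18, 7 rose and 4 fell over Sham with IL-4 MSCs (median 0.04). Over all 17131 genes 3153 rose and 3160 fell in this comparison. Casp4, the caspase of the non-canonical inflammasome, was highest of the 18 at 2.20 (edgeR, adjusted p = 5.84e-06). Map1lc3a, an LC3 gene, was lowest at -0.18 (adjusted p = 0.00494).

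**Figure D5:**
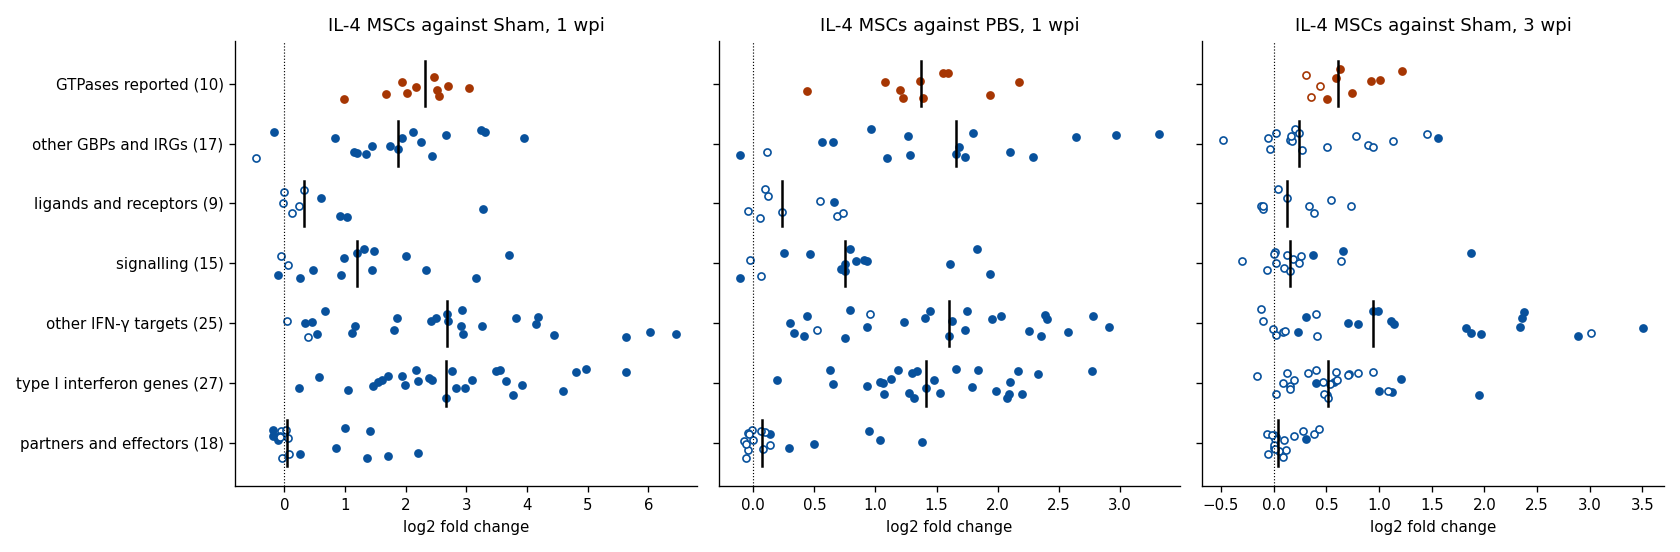
Log2 fold change (x axis, a separate scale in each panel) of every tested gene of the members (brown) and the 6 other lists (blue) for IL-4 MSCs against Sham and PBS at 1 wpi and against Sham at 3 wpi; filled points had an adjusted p under 0.05 and the black line is the list's median. At 1 wpi the members (median 2.32), other targets (2.68) and type I genes (2.66) lie to the right of zero, and partners are split around it (0.04).

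At 1 wpi the marker sums of monocytes and macrophages, natural killer and cytotoxic cells, and endothelium were higher with IL-4 MSCs than in Sham, PBS or MSCs. The other immune cell markers did not all share this. The shares over all genes are those given with the pathway lists. With IL-4 MSCs 8 of 8 monocyte and macrophage markers rose over Sham (median log2 fold change 3.34) and 6 over PBS. Their summed levels were 38.7 to 73.4 CPM in Sham, 104 to 173 CPM in PBS, 120.4 to 190.1 CPM with MSCs and 228 to 343 CPM with IL-4 MSCs. All 7 tested markers of natural killer and cytotoxic cells rose over Sham and 6 over PBS. Their summed levels were 0.295 to 0.903 CPM in Sham, 0.851 to 1.60 CPM in PBS, 0.990 to 1.82 CPM with MSCs and 3.70 to 10.6 CPM with IL-4 MSCs. Ncr1 and Gzmb, defining markers of these cells, had no count in any sham mouse. In PBS and MSC mice at 1 wpi both had at most 3 estimated counts, the limit of detection. Ncr1 was not among the 7 markers tested. Of 8 microglia markers 7 rose over Sham with IL-4 MSCs (median 0.57), but already 7 in PBS (0.62), and 2 rose over PBS. Of 7 endothelial markers 6 rose over PBS (median 0.43). Their summed levels were 299 to 379 CPM with IL-4 MSCs and at most 293 CPM in Sham, PBS and MSCs. Of 8 T-cell markers 1 rose over PBS (median 0.75). Of 7 markers of stromal cells like those injected 5 rose over Sham with IL-4 MSCs and 2 over MSCs. Of 6 tested dendritic and B-cell markers 2 rose over Sham, and 1 of the 6, Siglech, is also counted among the microglia markers. Of 5 tested neutrophil markers 0 rose over Sham (edgeR, 0 under 0.05 before adjustment). Of 6 astrocyte markers 5 rose over Sham, while 5 of 6 neuron markers fell. The part of these cells in the GTPase levels was not tested. Within the IL-4 MSC group, mouse 5, with the highest GTPase sum, had the lowest sums of macrophage markers (228 CPM) and of natural killer and cytotoxic markers (3.70 CPM) of the 5. Mouse 2, with the next highest GTPase sum (205 CPM), had the highest natural killer sum (10.6 CPM) and the next highest macrophage sum (316 CPM). At 3 wpi T-cell markers were above Sham with MSCs (5 of 8) and with IL-4 MSCs (5 of 8) and above PBS in 3 and 5 of 8. Their summed levels were 5.09 to 8.14 CPM in PBS, 8.25 to 12.1 CPM with MSCs and 9.92 to 24.5 CPM with IL-4 MSCs. Sham mice had 3.78 and 4.49 CPM at week 1 but 8.28, 8.73 and 8.74 CPM at week 3, within or above the PBS range. In IL-4 MSCs, mouse 2, with the lowest striatum marker sum (809 CPM), had 9.92 CPM, and the other mice had 18.2 to 24.5 CPM. The part of the tissue block in these T-cell levels was not tested. None of the 10 GTPases passed the test between the treatments at 3 wpi.

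Among the 10 genes whose pattern over the 34 libraries was most like the members' common profile, the mean of their standardised log2 CPM, were Tap1 (Pearson's r = 0.979), Parp14 (0.976), Rnf213 (0.973), Parp12 (0.972), Bst2 (0.970), Tapbp (0.970), Oas1g (0.969), Uba7 (0.969) and Irf7 (0.968). Tap1 and Tapbp serve the loading of peptides onto MHC class I, and Bst2, Oas1g and Irf7 are interferon-induced genes of antiviral defence. These correlations include the differences between groups, share their libraries with the values above, and are given without a test.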

How the data were processed

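The authors trimmed paired 50-base reads on an Illumina NovaSeq, pseudo-aligned them with kallisto to protein-coding GENCODE vM23 transcripts and summarised them per gene, and per the submitters' processing notes the tools were FastQC 0.11.8, cutadapt 2.4, kallisto 0.46, sleuth 0.30 and R 3.6.1. The table the authors deposited gives, for each gene and mouse, estimated counts and TPM, the latter scaled for transcript length and to the library's total. It also holds p-values, q-values and log fold changes of the authors' own comparisons, which were not used. A mouse of PBS at 3 wpi that the authors excluded has no column, and no column belonged to a mouse outside the 34.

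Estimated counts were rounded to whole numbers, filtered by edgeR's filterByExpr (17131 of 21203 genes kept), normalised by TMM and fitted in edgeR 4.0.16 (R 4.3.3, limma 3.58.1) with 1 coefficient per group and no covariate over all 34 libraries; contrasts were tested with the two-sided quasi-likelihood test and adjusted by Benjamini-Hochberg over all tested genes. DESeq2 1.42.0 was an alternative. Approximate 95% intervals are normal intervals from the SE. CPM was the estimated count scaled to the library's total, and 3 counts were taken as the limit of detection; total counts of 29838423 to 41554322 per library set that precision, which covers counting error only. The 10 members, the gene lists and the tests were chosen with earlier results of these data known. Named genes were the 10 members, the genes of the pathway lists with the highest and lowest fold in each list or with a defined role in the pathway, and the 10 genes most like the members' common profile. Alternatives were other size factors, no filter, DESeq2, a replicate block, striatum markers as a covariate, only the groups compared, only sham mice of the same week, a log2 fold change of at least 1, and leaving out each mouse. The labels name the samples as separate mice. The fit was tested on simulated counts. Same-numbered mice of different groups were compared after group means were subtracted to check whether the numbers pair them. A gene of the signalling list is counted with its list but not reported here by name.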

Additional observations from a re-analysis of the deposited data

Results flagged for a closer look

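Among the 70 sets of a member's values in a group, 4 held a mouse far from the others by Dixon's test, which chance gives in about 1 of 20. Gbp2 was high in sham mouse 5 (3.57 CPM), Irgm1 in sham mouse 3 (8.31 CPM) and in MSC mouse 4 at 1 wpi (23.9 CPM), and Gbp5 was low in MSC mouse 3 at 3 wpi (8.29 CPM).

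The effect of IL-4 MSCs differed between 1 and 3 wpi in 16 tested interactions, given as the log2 difference at 3 wpi minus that at 1 wpi (edgeR, adjusted p under the threshold in each). Relative to PBS it was -1.04 for Gbp2, -1.25 for Gbp6, -0.93 for Gbp7, -0.80 for Irgm1, -1.14 for Irgm2, -1.10 for Igtp and -1.69 for Ifi47. Relative to MSCs it was -1.06 for Gbp2, -0.43 for Gbp5, -1.09 for Gbp6, -1.003 for Gbp7, -0.95 for Irgm1, -1.06 for Irgm2, -1.23 for Igtp, -1.59 for Iigp1 and -1.72 for Ifi47. These comparisons share the mice given IL-4 MSCs.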

How the results depend on the processing

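Of the 129 recomputed counts of members called that left out no mouse, 118 stayed within 1.5 times the reported count. Requiring a log2 fold change of at least 1 left 3 members for PBS, 5 for MSCs at 1 wpi, 2 for MSCs and 2 for IL-4 MSCs at 3 wpi against Sham, 6 for IL-4 MSCs against MSCs at 1 wpi, and 1 for the change over time in PBS and 1 in MSCs. This cutoff was applied to the members alone, so no share over all genes goes with these counts. At 3 wpi against Sham, only sham mice of that week left 0 in MSCs and 1 in IL-4 MSCs, only the 2 groups left 2 in IL-4 MSCs, and the striatum covariate left 4. Leaving out each mouse gave 2 to 6 members for MSCs and 3 to 8 for IL-4 MSCs at 3 wpi against Sham, 0 to 1 for IL-4 MSCs against PBS at 3 wpi, and for the change over time 2 to 5 in PBS and 2 to 4 in MSCs. The share of all genes called without each mouse is not given. A change in the members' count therefore cannot be told apart from one over all genes. The cause of these changes was not tested beyond the fewer mice or the stricter threshold that the settings impose. No difference of a member that passed the test in any setting changed sign. Of 180 log2 differences, 16 that passed in none changed sign: 9 of IL-4 MSCs against MSCs at 3 wpi, 5 of the MSC against PBS interaction, Gbp5 for MSCs against PBS at 1 wpi, and Ifi47 for PBS against Sham at 3 wpi (-0.21 to 0.10). At these depths Ifng lies at the limit of detection.

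The replicate block changed no count: it gave 8 and 10 members for PBS and IL-4 MSCs at 1 wpi against Sham. Same-numbered mice of different groups had a median correlation of 0.0118 (-0.46 to 0.40, 99 pairs), and 5 of 34 correlated best with their own number. No pairing was detected in this way and none was used. The check cannot show that same-numbered mice share nothing but the number.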
